A study of Saccharomyces cerevisiae with 10 samples.

Results

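The 43 genes described here act in DNA repair and in the DNA damage checkpoint of budding yeast. They were chosen by name from the 5989 coding sequences of the deposited table, by a rule that uses no measured value. The list was made with earlier results of these data known. The table listed 42 of them under these names and DDC2 under its synonym LCD1. By role they were 10 genes of nucleotide excision repair, 1 photolyase gene, 7 of base excision repair, 3 of mismatch repair, 9 of double-strand break repair, 3 of postreplication repair and 10 of the checkpoint. All 43 had enough reads to be among the 5943 genes tested.

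The strain was BY4741, labelled wild type, a haploid laboratory strain of mating type a that lacks functional HIS3, LEU2, MET15 and URA3 genes. Cultures grew in synthetic complete medium at 30 °C to an OD600 of 0.4 to 0.5 before KCl was added to a final 1.5 M. The libraries, made from polyadenylated RNA with random primers, came from cells at 0 h (the unstressed control) and after 0.5, 1, 1.5 and 2 h in KCl. Each of the 5 times had 1 library from time series a and 1 from time series b, which the design text calls independent experiments without saying how the cultures were started.

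Cells meet damaged DNA with a set of separate pathways. Excision repair removes altered bases or short damaged stretches, mismatch repair corrects copying errors, and recombination rebuilds broken chromosomes from an intact copy. Postreplication repair lets replication pass a lesion, and the checkpoint kinases Mec1 and Tel1 signal through Rad53 and Chk1 to hold the cell cycle and adjust transcription. In yeast many of the replication-linked repair genes are transcribed periodically at the start of S phase through the MluI cell-cycle box, and only some repair genes are induced by damaging agents.

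Levels are given as CPM, in series a and then series b. CPM are read counts scaled for the library's size and by its TMM factor (0.876 to 1.16), which evens differences in composition. Differences are log2 fold changes with the standard error (SE) that follows from the F statistic of edgeR's quasi-likelihood test, and a gene was called higher or lower at an adjusted p under 0.05 over all genes tested. The p-values rest on the spread between the 2 libraries of a time, pooled over the 5 times and drawn toward that of other genes. Totals were 3372373 to 4913739 reads in series a and 4676814 to 8325291 in series b, and a member had between 38 and 2356 reads in a library. The 6 genes specific to mating type a had 60 to 6858 reads each in every library, and the 4 specific to mating type alpha had 4 to 662. The summed level of the a genes fell from 2626 and 2432 CPM at 0 h to 732 and 763 at 2 h. That of the alpha genes rose from 99.0 and 112 CPM to 145 and 140, and the cause was not tested. LEU2 and MET17 (the MET15 gene) had 0 reads in all 10 libraries. HIS3 had at most 7 reads, and URA3 at most 5 in 9 libraries. The 0.5 h library of series a stood apart with 162 URA3 reads, so counts at 0.5 h are given with and without it, and the part of those reads in any result was not tested.

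More of the repair and checkpoint genes were called late in the course than early, as was so for all genes. The direction of the late calls differed. At 1.5 and 2 h, 86.7% and 87.5% of the members' calls were higher, beside 49.0% and 50.5% of the calls of all genes. At 0.5 h against 0 h, 10 of the 43 were called higher and 12 lower, where 26% of all genes tested were called higher and 27.6% lower. Without the 0.5 h library of series a, the counts were 9 higher and 10 lower. DESeq2's Wald test called 5 lower at 0.5 h. At 1 h, 13 were called higher and 8 lower, beside 28.9% and 28.1% of all genes, and DESeq2 called 8 higher. At 1.5 h, 26 were called higher and 4 lower, beside 37.5% and 39.1% of all genes. At 2 h, 28 were called higher and 4 lower, beside 37.8% and 37% of all genes. Levels are relative ones in the polyadenylated RNA of a whole culture, after TMM scaling. Thus a change in the share of cells that hold an mRNA and a change in its amount per cell cannot be told apart.

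**Figure D1:**
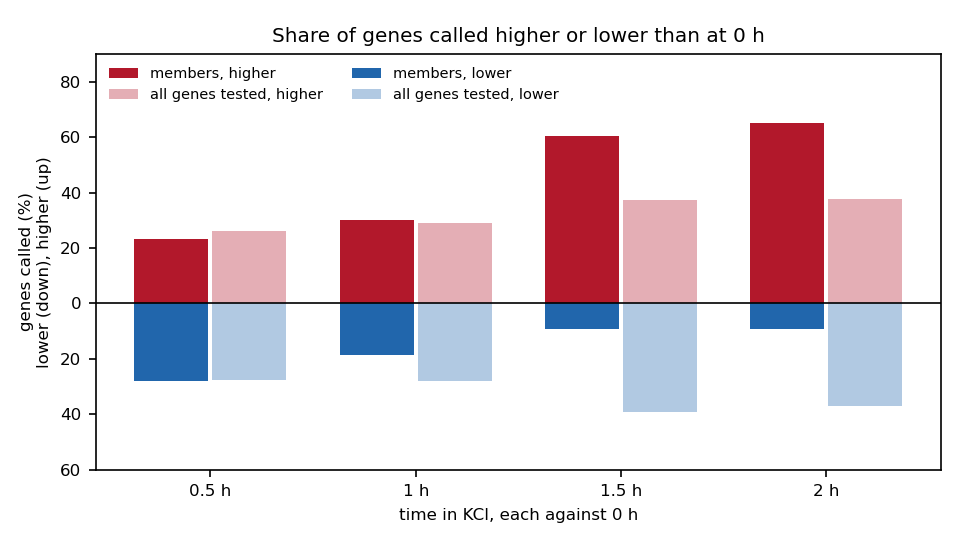
Percent of genes called higher (upward bars) or lower (downward bars) than at 0 h by edgeR's quasi-likelihood test, at 0.5, 1, 1.5 and 2 h in KCl on the x axis, for the 43 members (dark, left of each pair) and all 5943 genes tested (light, right). At 1.5 and 2 h the dark upward bars stand for 26 and 28 members and the dark downward bars for 4 each.

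The median log2 fold change of the 43 was -0.11 at 0.5 h, 0.02 at 1 h, 0.31 at 1.5 h, then 0.33 at 2 h. Over all genes tested it was 0.00 at 0.5 and 1 h, -0.01 at 1.5 h and 0.01 at 2 h. Scaling by library size alone moved the median of all genes by 0.32 at 1.5 h and 0.28 at 2 h. The members' median stood 0.32 above that of all genes at both times. A scaling moves all genes alike, so this distance could not change between the 4 scalings run and is no check on them. At 0.5 h the split of calls moved with the scaling. It was 12 higher and 9 lower with DESeq2's size factors, beside 1801 and 1434 of all 5943 genes. With library size alone it was 8 higher and 16 lower, beside 1153 and 1996 of all genes. The median at 1 h was -0.01 with upper-quartile factors.

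Most changes were small. At least 2-fold calls against 0 h, at any of the 4 times, were made for 5 of the 43 members (MAG1, RAD52, RAD2, PHR1 and OGG1), beside 31% of all genes. The ratio of the highest to the lowest of the 5 mean levels had a median of 1.57 over the members, between 1.14 for MEC3 and 6.72 for MAG1, and of 1.78 over all genes. Over the whole course 39 of the 43 members were called changed, beside 91.7% of all genes. The 4 others were MEC3, RAD10, DDC2 and MRE11. These 4, with RAD30 and RAD5, were also the 6 called at none of the 4 times against 0 h, beside 8.45% of all genes. The highest mean fell at 2 h for 20 members and at 1.5 h for 11, where 21.0% and 22.2% of all genes had theirs. Per kilobase of coding length, the members' median level was 26.5 CPM at 0 h and 29.8 CPM at 2 h, and that of all genes was 55.7 and 55.2 CPM. RAD23 had the highest such level at each time, at 176 CPM per kilobase at 0 h and 215 at 2 h.

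**Figure D2:**
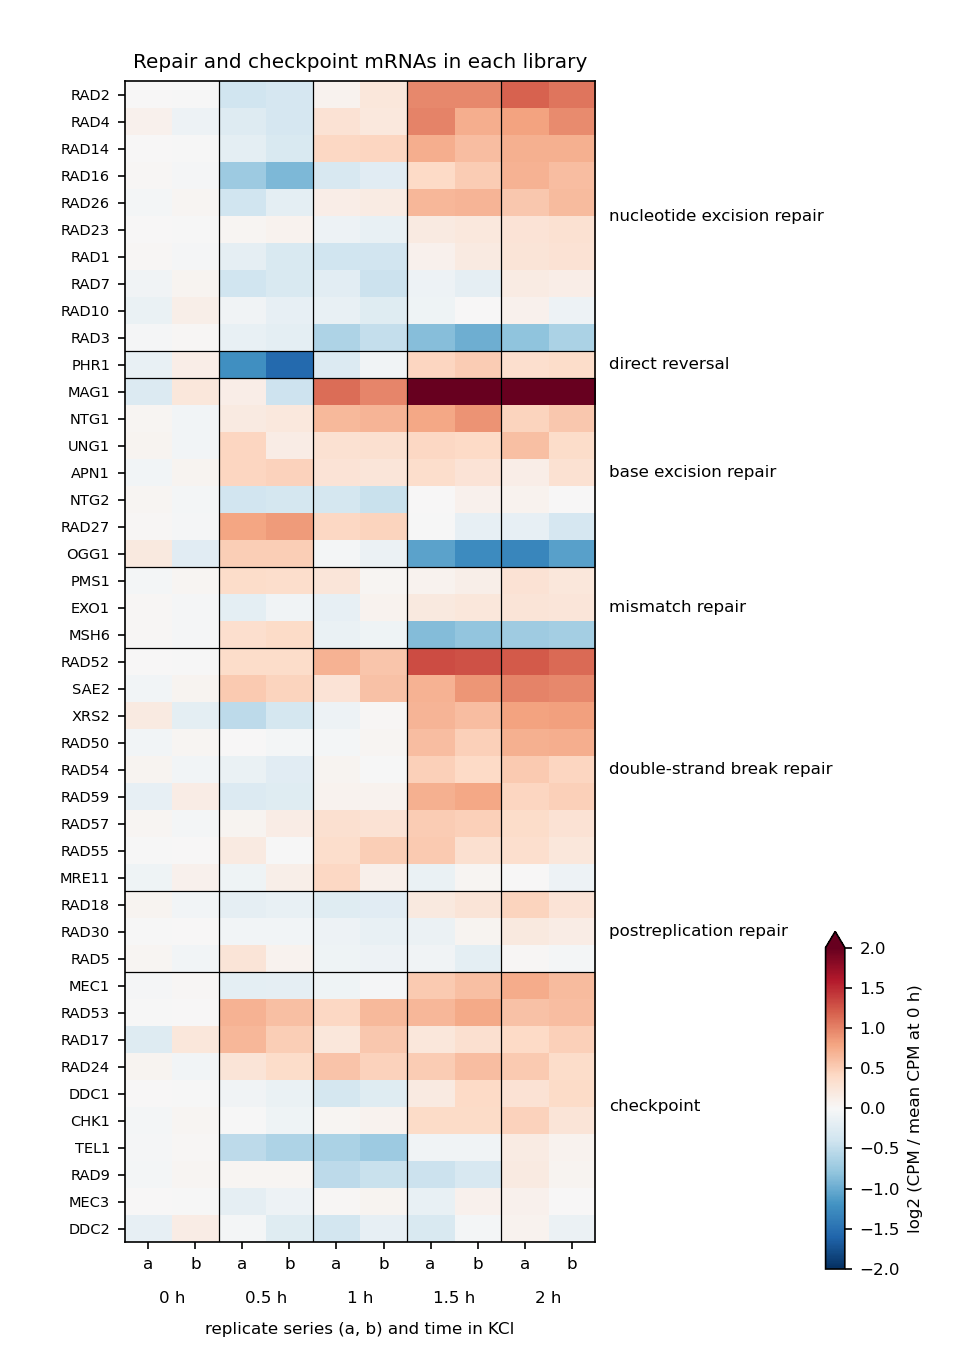
Log2 of CPM over the mean CPM at 0 h (colour, red above and blue below) for the 43 members (y axis, by role and then by the change at 2 h) in each of the 10 libraries (x axis, time and series). Most nucleotide excision repair and double-strand break repair genes turn red at 1.5 and 2 h, MAG1 lies beyond the colour scale at both times, and OGG1, MSH6 and RAD3 are blue there.

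Promoter letters are shown for the members whose results bear on them, from the RefSeq R64 genome, 5′ to 3′ on the gene's own strand. In the 300 bases before the start codon, searched on both strands, the MluI cell-cycle box (ACGCGT) was found in 9 of the 43 members, or 20.9%, and in 3.5% of 5976 promoters of the same length. The 9 were UNG1, RAD27, MSH6, PMS1, EXO1, RAD54, RAD5, RAD17 and RAD53. RAD27, MSH6 and RAD53 each held 2 boxes, in capitals in the 250 bases that end 51 bases before the start codon, at chrXI:225926-226175, chrIV:643888-644137 and chrXVI:264243-264492, all on the minus strand.
RAD27: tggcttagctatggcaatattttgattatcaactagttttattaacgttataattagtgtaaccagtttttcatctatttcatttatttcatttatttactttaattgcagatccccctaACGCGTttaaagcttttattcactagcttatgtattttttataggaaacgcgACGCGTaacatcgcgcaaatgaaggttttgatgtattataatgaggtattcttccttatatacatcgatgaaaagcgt
MSH6: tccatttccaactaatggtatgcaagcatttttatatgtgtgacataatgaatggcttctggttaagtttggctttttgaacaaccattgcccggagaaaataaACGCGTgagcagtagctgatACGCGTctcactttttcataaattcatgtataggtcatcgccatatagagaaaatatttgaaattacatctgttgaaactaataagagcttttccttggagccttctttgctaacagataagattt
RAD53: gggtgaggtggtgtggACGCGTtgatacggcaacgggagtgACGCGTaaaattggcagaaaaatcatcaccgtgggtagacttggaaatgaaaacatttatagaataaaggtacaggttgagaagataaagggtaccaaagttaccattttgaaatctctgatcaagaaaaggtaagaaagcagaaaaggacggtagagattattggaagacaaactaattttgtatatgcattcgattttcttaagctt
The other 6 held 1 box each, shown in capitals with 10 bases on either side, at chrXIII:230859-230884 (minus) for UNG1, chrXIV:473255-473280 (plus) for PMS1, chrXV:394763-394788 (minus) for EXO1, chrVII:196647-196672 (minus) for RAD54, chrXII:204844-204869 (plus) for RAD5 and chrXV:1026737-1026762 (plus) for RAD17.
UNG1: tgtgtccgcaACGCGTaattcatcca
PMS1: aaaagaaaagACGCGTctctcttaat
EXO1: tttttttcttACGCGTctttagcaaa
RAD54: aaagtattttACGCGTtacccaatat
RAD5: tgaaaattttACGCGTcataaaccct
RAD17: gtggctagagACGCGTaacaaaagtt
A match describes these letters and shows no binding.

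At 0.5 h, 5 of the 9 members with the box were called higher (RAD27, RAD53, RAD17, MSH6 and PMS1) and 1 lower (RAD54), with a median log2 fold change of 0.36. Of the 34 members without it, 5 were called higher and 11 lower, with a median of -0.15. Among all tested promoters with the box, 42.8% of 208 genes were called higher and 13.0% lower, against 25.4% higher and 28.2% lower among the 5723 without it. Without the 0.5 h library of series a, 5 of the 9 were called higher and 1 lower, and 4 of the 34 higher and 9 lower. Under the other 3 scalings, 5 or 6 of the 9 were called higher. At 1.5 h, 4 of the 9 were higher and 1 lower (44.4% and 11.1%), and 22 of the 34 higher and 3 lower (64.7% and 8.8%), where 29.8% of all promoters with the box were higher and 39.9% lower. At 2 h the share called higher was 66.7% of the members with the box and 64.7% of those without. The difference between members with and without the box was described and not tested.

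**Figure D3:**
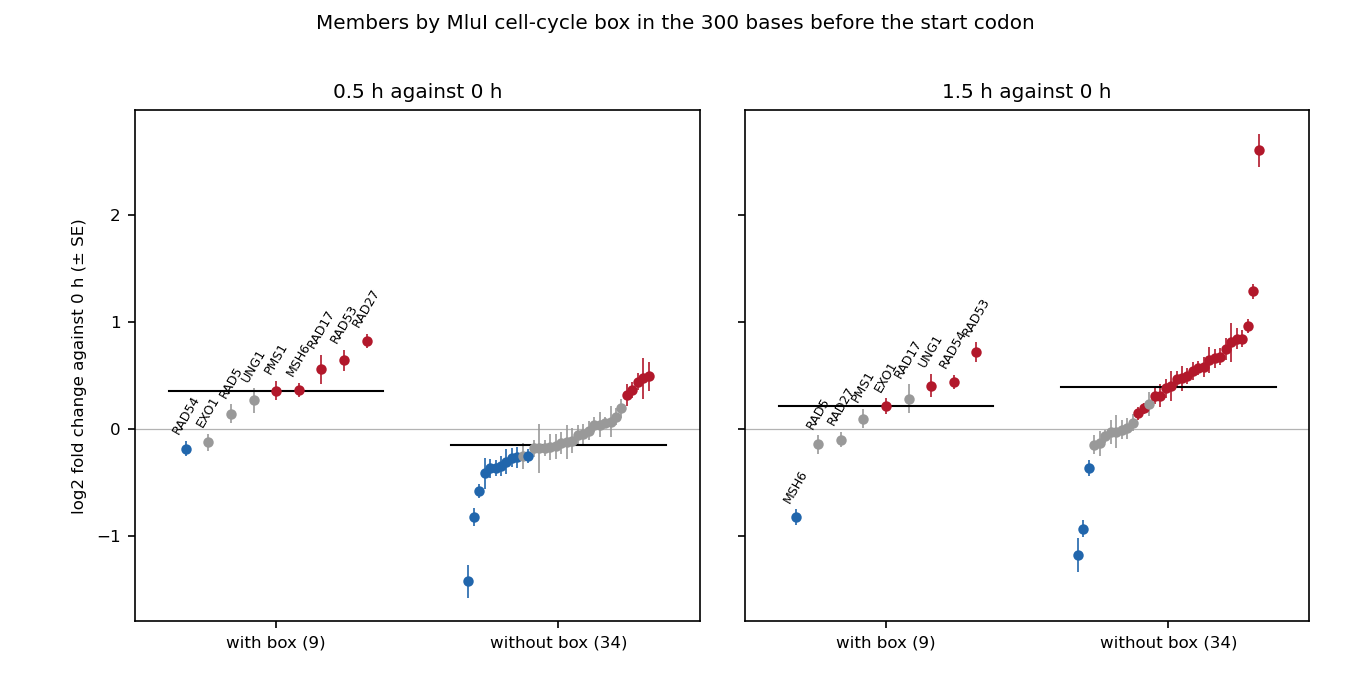
Log2 fold change against 0 h with its SE (y axis) for the members with an MluI cell-cycle box (left in each panel, gene names printed) and without one (right), at 0.5 h (left panel) and 1.5 h (right panel). Red points were called higher, blue lower and grey not called, and black lines are medians, which at 0.5 h lie at 0.36 with the box and -0.15 without.

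Among other short motifs searched on both strands, the stress response element (AGGGG) was found in 8 members, or 18.6%, and in 22.16% of all promoters. At 1.5 h, 4 of these 8 members were called higher, against 22 of the 35 without the element, and at 2 h 3 of the 8, against 25 of the 35. Among all promoters with the element 53.1% were higher at 1.5 h, against 33.0% without it, an order the members did not show. At 1 h the members followed all promoters in the share higher (37.5% with and 28.6% without, beside 41.8% and 25.2%). They also did in the share lower at 0.5 h (37.5% and 25.7%, beside 41.5% and 23.7%). They did not in the share higher at 0.5 h (25.0% and 22.9%, beside 17.8% and 28.3%) or lower at 1 h (25.0% and 17.1%, beside 23.2% and 29.4%). These differences were not tested. The Swi4 cell-cycle box (CNCGAAA) was found in 8 members and in 14.59% of promoters. The proteasome-associated control element (GGTGGCAAA), bound by the transcription factor Rpn4, was found in 0 members and in 1.2% of promoters. Its first 6 letters, GGTGGC, were in 5 members (RAD10, RAD23, MAG1, RAD52 and RAD17) and in 6.46% of promoters. The motifs may overlap, as the shorter element lies within the longer one.

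Nucleotide excision repair genes, which cut out bulky lesions such as those made by ultraviolet light, were called in different directions early and late. Of these 10 genes, 7 were called lower and 0 higher at 0.5 h, beside 27.6% and 26% of all genes, with 6 lower without the 0.5 h library of series a and 5 with DESeq2's size factors. DESeq2's Wald test made 2 of these 7 calls, those of RAD2 and RAD16, and gave the other 5 an adjusted p of 0.065 to 0.25. At 1 h, 5 were lower and 1, RAD14, higher, beside 28.1% and 28.9% of all genes. At both 1.5 and 2 h, 7 were higher and 1, RAD3, lower, and 2, RAD7 and RAD10, were not called. All genes had 37.5% higher and 39.1% lower at 1.5 h, and 37.8% and 37% at 2 h. The class median was -0.27 at 0.5 h, -0.17 at 1 h, 0.33 at 1.5 h, then 0.44 at 2 h.

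RAD2 (chrVII:1007671-1010766, minus), the endonuclease that makes the incision on one side of the lesion, had 94.6 and 93.0 CPM at 0 h, 71.1 and 74.1 at 0.5 h, 98.9 and 109 at 1 h, 183 and 182 at 1.5 h, then 212 and 196 at 2 h. Both 0.5 h libraries lay below both 0 h libraries, and the 1.5 and 2 h libraries lay above all the others. Its log2 fold change was 1.11 at 2 h (SE 0.07, adjusted p 6.8e-12). RAD16, an ATPase that with RAD7 serves repair of untranscribed DNA, had 86.4 and 84.3 CPM at 0 h, 51.5 and 46.0 at 0.5 h, 68.6 and 72.9 at 1 h, 112 and 122 at 1.5 h, then 138 and 131 at 2 h. It fell by 0.82 at 0.5 h (SE 0.09, adjusted p 1.7e-07) and rose by 0.65 at 2 h (SE 0.07, adjusted p 1.1e-07), with no overlap between the libraries of either time and those of 0 h. RAD3, the helicase of the transcription factor TFIIH that opens DNA around the lesion, ran the other way, with 106 and 111 CPM at 0 h, 97.8 and 95.1 at 0.5 h, 70.8 and 77.9 at 1 h, 60.1 and 55.0 at 1.5 h, then 62.2 and 69.9 at 2 h. All its libraries in KCl lay below both 0 h libraries, and at 1.5 h it fell by 0.93 (SE 0.08, adjusted p 1.6e-09). RAD3 at 0.5 h was not called (-0.18, adjusted p 0.056), and with the series as a block it was (-0.18, adjusted p 0.049).

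RAD4, which recognises the lesion, had 99.4 and 83.0 CPM at 1.5 h, against 53.2 and 46.8 CPM at 0 h, and rose by 0.84 (SE 0.10, adjusted p 1.9e-07). It was not called at 1 h (0.24, adjusted p 0.07), but was with the series as a block (0.25, adjusted p 0.048). RAD14, a lesion-binding factor, rose by 0.66 at 1.5 h and by 0.71 at 2 h. RAD26, the ATPase of transcription-coupled repair, rose by 0.67 at 1.5 h and by 0.60 at 2 h. These 3 genes fell at 0.5 h, by 0.30, 0.27 and 0.27 in that order. RAD1, a subunit of the endonuclease that cuts on the other side of the lesion, fell by 0.39 at 1 h and rose by 0.28 at 2 h. RAD7 fell by 0.35 at both 0.5 and 1 h and had 0.15 at 2 h, which was not called. RAD23, which stabilises Rad4, rose by 0.29 at 2 h (SE 0.05, adjusted p 5e-05).

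RAD10 (chrXIII:81481-82113, minus), the partner of RAD1, showed the second smallest range of the members and is the only one whose coding sequence overlaps another, YML096W. It had 15.8 and 18.7 CPM at 0 h, 16.5 and 15.5 at 0.5 h, 15.6 and 14.6 at 1 h, 16.3 and 17.4 at 1.5 h, then 18.3 and 16.1 at 2 h. The libraries overlapped those of 0 h at every time except 1 h, where both lay below, and the adjusted p was 0.69 over the course. Of its counts, 7 ended in 0.5, and which of the reads came from YML096W was not tested.

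Several small changes of this class, most of them early, lost their call without single libraries. The values did not always move with the call. RAD14 at 0.5 h stood at -0.27, then at -0.26 and -0.27 without series a or b of 0 h, and at -0.20 without series b of 0.5 h. The 0.5 h calls of RAD4 and RAD14 were lost without the 0 h library of series a (adjusted p 0.24 and 0.099) or the 0.5 h library of series b (0.2 and 0.25), and that of RAD14 also without the 0 h library of series b (0.091). Those of RAD26 and RAD7 were lost without the 0 h library of series b (adjusted p 0.11 and 0.056), that of RAD26 without the 0.5 h library of series a (0.13), and that of RAD1 without the 0.5 h library of series b (0.11). At 1 h, RAD16 lost its call without the series a library of 0 h or 1 h (adjusted p 0.052 and 0.05) and RAD7 without the series b library of 0 h or 1 h (0.055 and 0.18). RAD23 at 1 h fell by 0.13 (adjusted p 0.049, and 0.14 by DESeq2), and its adjusted p was 0.054 to 0.25 without any single library of the 10. RAD1 at 1.5 h was called at 0.15 (adjusted p 0.043, and 0.18 by DESeq2), and without any 1 of 7 libraries, among them both of 0 h, 1 h and 2 h and series b of 1.5 h, its adjusted p was 0.05 to 0.33.

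PHR1 (chrXV:1066839-1068536, plus), the photolyase that splits pyrimidine dimers with the energy of light, had the deepest fall at 0.5 h. It had 28.3 and 34.7 CPM at 0 h, 13.5 and 10.7 at 0.5 h, 26.1 and 30.0 at 1 h, 42.3 and 44.9 at 1.5 h, then 40.0 and 40.6 at 2 h. Both 0.5 h libraries lay below all 8 others, the 1 h libraries overlapped those of 0 h, and the 1.5 and 2 h libraries lay above both 0 h libraries. It fell by 1.42 at 0.5 h (SE 0.15, adjusted p 3.1e-07), the only member called at least 2-fold lower then, beside 3.43% of all genes. It rose by 0.47 at 1.5 h (SE 0.12, adjusted p 0.0012) and by 0.36 at 2 h (adjusted p 0.013). The 2 h call was lost without the 0 h library of series a (0.22, adjusted p 0.18) or the 2 h library of series b (0.34, adjusted p 0.08), and by DESeq2 (adjusted p 0.069).

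Base excision repair, in which a glycosylase removes a damaged base and an endonuclease cuts the backbone, held both the largest rise and the largest late fall among the members. Of its 7 genes, 3 were called higher and 1 lower at 0.5 h, also without the 0.5 h library of series a, and with DESeq2's size factors 5 were higher and 1 lower. At 1 h, 5 were higher and 1 lower, at 1.5 h 4 were higher and 1 lower, and at 2 h 4 were higher and 2 lower. The shares of all genes called higher were 26%, 28.9%, 37.5% and 37.8% in order of time, and lower 27.6%, 28.1%, 39.1% and 37%.

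MAG1 (chrV:455146-456036, minus), the glycosylase that removes alkylated bases, had 14.2 and 20.1 CPM at 0 h, 18.8 and 12.9 at 0.5 h, 37.2 and 33.9 at 1 h, 119 and 93.6 at 1.5 h, then 98.3 and 102 at 2 h. The libraries of 0 and 0.5 h overlapped, and the 1 h libraries lay between them and those of 1.5 and 2 h. MAG1 rose by 1.03 at 1 h (SE 0.19, adjusted p 0.00016), by 2.60 at 1.5 h (SE 0.15, adjusted p 5.4e-12) and by 2.55 at 2 h (SE 0.16, adjusted p 1.1e-11). MAG1 was the 1 member called at least 2-fold higher at 1 h, beside 7.02% of all genes, but without series a of 0 h (0.80) or of 1 h it stayed called below 2-fold, which left 0 members. MAG1 and RAD52 were the 2 at 1.5 h, beside 14.3%. Its promoter, shown from 300 to 51 bases before the start codon (chrV:456087-456336, minus), held GGTGGC, in capitals, 2 times.
MAG1: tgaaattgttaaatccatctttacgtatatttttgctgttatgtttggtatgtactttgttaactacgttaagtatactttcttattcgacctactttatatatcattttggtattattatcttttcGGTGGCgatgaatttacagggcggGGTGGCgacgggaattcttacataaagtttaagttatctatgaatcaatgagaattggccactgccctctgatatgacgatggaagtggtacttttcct
The 5′ end of this stretch reaches into DDI1, the divergent neighbour, whose coding sequence begins 282 bases away. DDI1, named here for its place, encodes a ubiquitin receptor and is itself known as a damage-induced gene. DDI1 had 169 and 151 CPM at 1.5 h, against 49.0 and 49.1 CPM at 0 h, and its log2 fold change was -0.44 at 0.5 h, 0.39 at 1 h, 1.69 at 1.5 h, then 1.52 at 2 h, each called by edgeR's quasi-likelihood test.

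OGG1 (chrXIII:151871-153001, plus), the glycosylase for oxidised guanine, had 32.5 and 24.2 CPM at 0 h, 39.7 and 40.0 at 0.5 h, 27.5 and 26.0 at 1 h, 13.5 and 11.9 at 1.5 h, then 11.5 and 13.3 at 2 h. The 0.5 h libraries lay above both of 0 h, the 1 h libraries between the 2 of 0 h, and the 1.5 and 2 h libraries below all others. OGG1 fell by 1.18 at 1.5 h (SE 0.16, adjusted p 1.3e-06) and by 1.15 at 2 h (SE 0.16, adjusted p 2.4e-06), the only member at least 2-fold lower at these times, where 12.5% and 10.1% of all genes were. Without the 0 h library of series a it stayed called at -0.95 and -0.93, below 2-fold at both times. Its rise at 0.5 h, of 0.49, was lost without the 0 h library of series b (0.29, adjusted p 0.11).

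RAD27 (chrXI:224727-225875, minus), the flap endonuclease of long-patch base excision and of Okazaki fragment processing, had the largest rise at 0.5 h. It had 111 and 107 CPM at 0 h, 188 and 196 at 0.5 h, 145 and 149 at 1 h, 108 and 97.5 at 1.5 h, then 96.8 and 86.4 at 2 h. The 0.5 h libraries lay above all others, the 1.5 h libraries overlapped those of 0 h and the 2 h libraries lay below them. It rose by 0.82 at 0.5 h (SE 0.07, adjusted p 6.6e-09) and by 0.43 at 1 h, and fell by 0.27 at 2 h (adjusted p 0.0027). That fall was lost without the 2 h library of series b (-0.17, adjusted p 0.12), and with library size alone the value was 0.012.

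**Figure D4:**
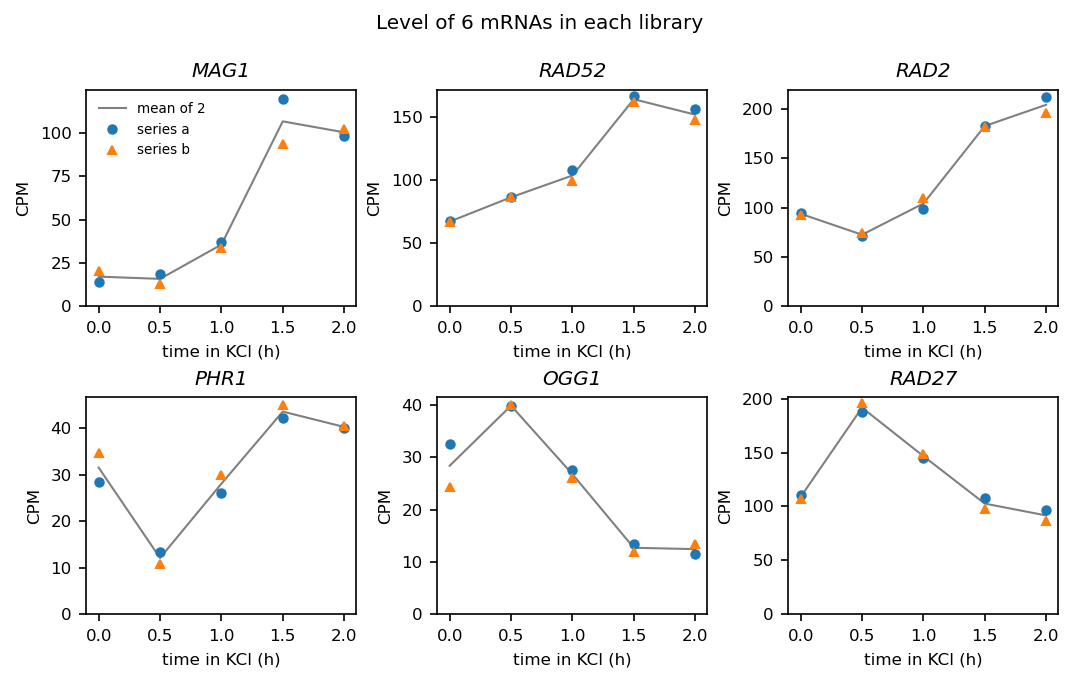
CPM (y axis, from 0) against time in KCl in hours (x axis) for 6 members, with circles for series a, triangles for series b and a line through the mean of the 2. MAG1, RAD52 and RAD2 are highest at 1.5 or 2 h, PHR1 is lowest at 0.5 h, and OGG1 and RAD27 are highest at 0.5 h and lowest at 2 h.

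NTG1, a glycosylase for oxidised pyrimidines, rose by 0.67 at 1 h, 0.84 at 1.5 h and 0.51 at 2 h. NTG2, its paralog, fell by 0.37 at 0.5 h and by 0.41 at 1 h and was not called later (0.06 and 0.03). APN1, the main endonuclease for sites that lack a base, was called higher at each time, at 0.44, 0.25, 0.31 and 0.25 in order of time. UNG1, which removes uracil, rose by 0.31 at 1 h, 0.41 at 1.5 h and 0.45 at 2 h. UNG1 was not called at 0.5 h (0.27, adjusted p 0.057) but was with the series as a block (0.28, adjusted p 0.034). Calls lost without 1 library were those of APN1 at 1 h without the 0 h library of series a (adjusted p 0.088) and at 2 h without that library or the 2 h library of series b (0.068 and 0.24). UNG1 lost its 1 h call without series b of 0 h or either 1 h library (adjusted p 0.054 to 0.14). DESeq2 did not make the 1 h calls of APN1 and UNG1 (adjusted p 0.08 and 0.11) or the 2 h call of APN1 (0.067).

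The 3 mismatch repair genes did not move as a group. Calls were made for 2 at 0.5 h, both higher, where 26% of all genes were. At 1 h, 0 were called, where 28.9% of all genes were higher and 28.1% lower. At 1.5 h, 1 was higher and 1 lower, beside 37.5% and 39.1% of all genes. At 2 h PMS1 and EXO1 were higher and MSH6 lower, beside 37.8% and 37% of all genes. MSH6, which helps to find mismatched bases, had 104 and 99.4 CPM at 0 h, 128 and 133 at 0.5 h, 92.8 and 95.2 at 1 h, 55.8 and 58.5 at 1.5 h, then 62.0 and 63.2 at 2 h. Both 0.5 h libraries lay above those of 0 h, and from 1 h on all lay below. MSH6 rose by 0.36 at 0.5 h (SE 0.06, adjusted p 1e-04) and fell by 0.82 at 1.5 h (SE 0.07, adjusted p 2.1e-09). PMS1, a subunit of the complex that nicks the strand, rose by 0.36 at 0.5 h and by 0.25 at 2 h. EXO1, the exonuclease that removes the mismatched strand, rose by 0.21 at 1.5 h and by 0.24 at 2 h. The late PMS1 call was lost without series a of 0 h or of 2 h (adjusted p 0.11 and 0.055), and the 1.5 h call of EXO1 without series b of 0 h or of 1.5 h (0.079 and 0.078). DESeq2 did not make the late call of PMS1 (adjusted p 0.11) or those of EXO1 at 1.5 and 2 h (0.077 and 0.057).

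Of the 9 double-strand break repair genes, most were called higher late. At 0.5 h, 2 were higher and 2 lower, beside 26% and 27.6% of all genes (1 and 1 without the 0.5 h library of series a). At 1 h, 4 were higher and 0 lower, beside 28.9% and 28.1% of all genes. At 1.5 h, 8 were higher and 0 lower, beside 37.5% and 39.1% of all genes. At 2 h, 7 were higher and 0 lower, beside 37.8% and 37% of all genes. The class median was 0.04 at 0.5 h, 0.23 at 1 h, 0.54 at 1.5 h, then 0.47 at 2 h. The other scalings moved the median of all genes by 0.005 to 0.318 at 1.5 h and by -0.011 to 0.283 at 2 h. They therefore could not turn these rises into lower calls.

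RAD52 (chrXIII:212515-213930, minus), which anneals DNA strands during recombination, had 67.8 and 66.5 CPM at 0 h, 86.6 and 86.3 at 0.5 h, 108 and 99.1 at 1 h, 167 and 162 at 1.5 h, then 156 and 147 at 2 h. Each later time lay above both 0 h libraries, and the 1.5 and 2 h libraries above all others. RAD52 rose by 0.36 at 0.5 h, 0.61 at 1 h, 1.29 at 1.5 h (SE 0.07, adjusted p 9.8e-13), then 1.17 at 2 h (SE 0.07, adjusted p 8e-12). With MAG1 and RAD2 it made up the 3 members at least 2-fold higher at 2 h, beside 13.1% of all genes.

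The MRX complex, which holds and trims broken ends, was uneven. RAD50, its structural subunit, rose by 0.54 at 1.5 h and by 0.72 at 2 h, and XRS2, its targeting subunit, by 0.64 and 0.81. MRE11, its nuclease, was not called at any time against 0 h and had 38.1 and 42.7 CPM at 1.5 h and 41.8 and 39.0 CPM at 2 h, against 39.3 and 44.1 CPM at 0 h. The MRE11 libraries overlapped those of 0 h at both times, and whether the subunits differed in their change was not tested. SAE2, which activates the Mre11 nuclease, was the member with the lowest level per length at 0 h, with 8.83 and 9.60 CPM at 0 h and 18.3 and 17.9 CPM at 2 h, a rise of 0.97 (SE 0.18, adjusted p 8.4e-05). Its values at 0.5 and 1 h were both 0.47 (adjusted p 0.048 each), and with the series as a block both calls were lost (0.46 each, adjusted p 0.053 and 0.052).

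RAD59, a Rad52 paralog that helps annealing, rose by 0.74 at 1.5 h and by 0.46 at 2 h. RAD54, a DNA translocase of recombination, rose by 0.44 and 0.47 at these times. RAD57 and RAD55 form a dimer that acts in recombination. RAD57 rose by 0.30 at 1 h, 0.49 at 1.5 h and 0.32 at 2 h. RAD55 rose by 0.44 at 1 h and by 0.40 at 1.5 h and was not called at 2 h (0.27, adjusted p 0.097). At 0.5 h XRS2 fell by 0.41 and RAD54 by 0.18. These 2 calls were lost without series a of 0 h (adjusted p 0.33 and 0.26), that of XRS2 also without series a of 0.5 h (0.096), and that of RAD54 without series a of 1 h or series b of 0.5 h (0.051 and 0.28). The SAE2 calls were lost without any 1 of 6 libraries at 0.5 h (adjusted p 0.058 to 0.18) and of 7 at 1 h (0.055 to 0.45). RAD55 lost its 1 h call without series a of 0 h or series b of 1 h (adjusted p 0.052 and 0.14), and its 1.5 h call without series a of 0 h or 1.5 h (0.055 and 0.069). DESeq2 did not make the 0.5 h calls of XRS2, RAD54 and SAE2 (adjusted p 0.11, 0.33 and 0.11) or the 1 h calls of RAD55 and SAE2 (0.073 and 0.18).

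The 3 postreplication repair genes moved little. RAD18, the ligase that marks the replication clamp with ubiquitin, was called only at 2 h among these times, at 0.33 (adjusted p 0.01), a call lost without series a of 2 h or series b of 0 h (0.061 and 0.079), and by DESeq2 (0.068). RAD5, the ligase that extends the ubiquitin chain, had 66.9 and 64.2 CPM at 2 h, against 68.1 and 63.7 CPM at 0 h, and was not called at any time against 0 h. RAD30 (chrIV:1303174-1305072, plus), the polymerase that copies past pyrimidine dimers, had 49.9 and 50.7 CPM at 0 h, 48.3 and 48.6 at 0.5 h, 46.9 and 45.6 at 1 h, 46.4 and 52.4 at 1.5 h, then 57.5 and 55.8 at 2 h. Only the 1.5 h libraries overlapped those of 0 h, but no time was called (adjusted p 0.098 to 1), and the ratio of its highest to its lowest mean was 1.22. Over the course both were called, RAD5 at an adjusted p of 0.024 and RAD30 at 0.038. With library size alone 2 of these 3 genes were called higher at 1.5 h and 3 at 2 h. That scaling called 3280 and 3215 of all 5943 genes higher at these times.

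Checkpoint genes went in several directions. Of the 10, 3 were called higher and 1 lower at 0.5 h, with the same counts without the 0.5 h library of series a, and 3 higher and 2 lower at 1 h. The shares called higher at these times were near those of all genes, 26% and 28.9%. Of all genes, 27.6% and 28.1% were called lower at these times. At 1.5 h, 5 were higher and 1 lower, beside 37.5% and 39.1% of all genes. At 2 h, 6 were higher and 0 lower, beside 37.8% and 37% of all genes. RAD53 (chrXVI:261727-264192, minus), the effector kinase that spreads the signal, had 38.8 and 39.3 CPM at 0 h, 62.9 and 59.5 at 0.5 h, 51.9 and 61.2 at 1 h, 61.7 and 65.7 at 1.5 h, then 58.8 and 59.9 at 2 h. All its libraries in KCl lay above both 0 h libraries, and its log2 fold change was 0.64 at 0.5 h (SE 0.10, adjusted p 1.8e-05), 0.56 at 1 h, 0.71 at 1.5 h and 0.61 at 2 h. CHK1, the other effector kinase, was not called early and rose by 0.38 at 1.5 h and 0.33 at 2 h.

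The 2 sensor kinases had different courses. TEL1 (chrII:51019-59382, minus), which responds to unprocessed broken ends, had 144 and 149 CPM at 0 h, 101 and 95.2 at 0.5 h, 94.1 and 88.5 at 1 h, 140 and 140 at 1.5 h, then 165 and 154 at 2 h. Its libraries of 0.5 and 1 h lay well below both 0 h libraries, and those of 1.5 h just below. It fell by 0.58 at 0.5 h (SE 0.07, adjusted p 4.5e-07) and by 0.69 at 1 h (SE 0.07, adjusted p 4e-08), and was not called at 1.5 or 2 h (-0.07 and 0.11). MEC1, which responds to single-stranded DNA, was not called at 0.5 or 1 h (-0.18 and -0.05) and rose by 0.57 at 1.5 h (SE 0.07, adjusted p 3.6e-07) and by 0.68 at 2 h. DDC2 (chrIV:1447830-1450073, plus), the partner of Mec1, had 47.2 and 58.3 CPM at 0 h, 51.1 and 44.4 at 0.5 h, 40.8 and 47.3 at 1 h, 42.9 and 51.5 at 1.5 h, then 55.2 and 48.8 at 2 h. The DDC2 libraries overlapped those of 0 h at each time, and the adjusted p over the course was 0.36.

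RAD9, the adaptor that brings Rad53 to Mec1, fell by 0.47 at 1 h and by 0.37 at 1.5 h and stood at 0.10 at 2 h, not called. RAD24, the loader of the checkpoint clamp, was called higher at each time, at 0.32, 0.50, 0.58 and 0.43 in order of time. Of the clamp itself, RAD17 rose by 0.56 at 0.5 h, 0.43 at 1 h and 0.45 at 2 h, and DDC1 rose by 0.31 at 1.5 h and by 0.34 at 2 h. MEC3 (chrXII:713480-714904, minus), the clamp's other subunit, had the smallest range of all 43, with 46.0 and 45.9 CPM at 0 h, 40.4 and 43.0 at 0.5 h, 46.7 and 48.0 at 1 h, 41.7 and 49.0 at 1.5 h, then 48.9 and 46.1 at 2 h. Its 0.5 h libraries lay below both of 0 h and its 1 and 2 h libraries above, but no time was called (adjusted p 0.29 to 0.97). DDC1 at 1 h was not called (-0.28, adjusted p 0.057) but was with the series as a block (-0.30, adjusted p 0.049).

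For RAD17 the call at 0.5, 1 and 2 h was lost without the 0 h library of series a (adjusted p 0.058, 0.23 and 0.15), at 1 h also without series b of 1 h (0.31) and at 2 h without series b of 2 h (0.061). RAD24 at 0.5 h lost its call without series b of 0 h or 0.5 h (adjusted p 0.098 and 0.13). DDC1 lost it at 1.5 h without either 0 h library or series b of 1.5 h (adjusted p 0.052 to 0.26) and at 2 h without series b of 2 h (0.11). DESeq2 did not make the DDC1 calls (adjusted p 0.09 and 0.072) or the 1 h call of RAD17 (0.054). Without 1 library of an arm, the lone library left is assumed to vary like those of the other times.

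Steps between neighbouring times placed most of the rise between 1 and 1.5 h. At 1 h against 0.5 h, 14 members were called higher and 9 lower, beside 32.9% and 32.1% of all genes, and 11 and 8 without the 0.5 h library of series a. PHR1 (1.28) and MAG1 (1.21) led the rises, and OGG1 (-0.58) the falls. At 1.5 h against 1 h, 23 were called higher and 5 lower, beside 34.1% and 34% of all genes, led by MAG1 (1.57) and RAD2 (0.79). The 5 lower were OGG1 (-1.09), MSH6 (-0.71), RAD27 (-0.53), RAD3 (-0.40) and MRE11 (-0.25), and the MRE11 call was lost without series a of 1 h or of 1.5 h (adjusted p 0.3 and 0.18). The members' median at this step was 0.22, and that of all genes 0.01. Library size alone moved the median of all genes by 0.32 at this step. It gave 37 members higher and 3 lower, beside 3522 and 1126 of all 5943 genes.

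At 2 h against 1.5 h, 5 members were called higher (RAD9, RAD7, RAD3, RAD16 and TEL1) and 2 lower (NTG1 and RAD59), beside 15.5% and 9.47% of all genes. RAD9 rose by 0.46 at this step (adjusted p 5.8e-05) and NTG1 fell by 0.34 (adjusted p 0.0014). The other 5 calls were each lost without 1 of 3 or 4 libraries. With upper-quartile factors or library size alone, 2 members were called higher and 4 lower. Of all 5943 genes, upper-quartile factors called 724 higher and 717 lower, and library size alone 699 and 724.

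A further 88 repair and checkpoint genes, from 8 lists of partners and targets, were taken as the rest of the pathway, and all were tested. At 0.5 h, 19 of them (21.6%) were called higher and 20 (22.7%) lower, where 26% and 27.6% of all genes were, or 14 and 16 without the 0.5 h library of series a. At 1 h, 29 (33.0%) were higher and 18 (20.5%) lower, where 28.9% and 28.1% of all genes were. At 1.5 h, 40 (45.5%) were higher and 22 (25.0%) lower, where 37.5% and 39.1% of all genes were. At 2 h, 42 (47.7%) were higher and 20 (22.7%) lower, where 37.8% and 37% of all genes were. The shares of the short lists that follow are of few genes. Their median was 0.04 at 0.5 h, 0.09 at 1 h, 0.17 at 1.5 h, then 0.21 at 2 h. Among 17 genes of recombination and joint molecules, 9 were higher and 2 lower at 1.5 h, and among 17 excision repair and TFIIH partners 10 were higher and 1 lower. Among 12 checkpoint mediators and effectors 4 were higher and 7 lower at 1.5 h, and among the 8 genes of the SMC5/6 list 3 were higher and 5 lower.

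Genes of the checkpoint's known output did not move as 1 group. DUN1, the kinase below Rad53, rose by 0.49 at 0.5 h, 0.60 at 1 h and 0.24 at 1.5 h (adjusted p 0.046) and was not called at 2 h (0.15). RNR3, the damage-inducible large subunit of ribonucleotide reductase, was not called at 0.5 h (-0.01) and rose by 1.38 at 1 h, 1.93 at 1.5 h and 1.74 at 2 h. HUG1, a small inhibitor of that enzyme, had 62 and 126 reads at 1.5 h, against 6 and 8 reads at 0 h, a rise of 2.99 (SE 0.41, adjusted p 1.9e-06). RNR2, a gene of the small subunit of that enzyme, fell by 1.31 at 1.5 h and by 1.35 at 2 h. PTC2, a phosphatase of Rad53, fell by 1.10 and 1.05 at these times, and TOS4, a target of the G1/S factors, rose by 0.60 at 0.5 h and fell by 1.07 and 1.19 at 1.5 and 2 h.

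DDR2 and DDR48, named for DNA damage but induced by many stresses, were among the strongest rises of these lists. DDR2 rose by 3.53 at 1 h, 4.51 at 1.5 h and 4.34 at 2 h, and DDR48 fell by 1.31 at 0.5 h and rose by 1.03, 1.89 and 1.88 at the later times. DNL4, the ligase of end joining, rose by 1.91 at 1.5 h and by 2.06 at 2 h, and PSO2, a nuclease for crosslinked strands, by 1.71 and 1.91. RAD6, the ubiquitin-conjugating enzyme that works with Rad18, was not called at 0.5 h (0.12) and rose by 0.24, 0.23 and 0.26 at the later times.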

How the data were processed

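Polyadenylated RNA of BY4741 was measured in 10 libraries, 2 for each of 5 times. The values the authors deposited are, per the file headers, raw read counts per coding sequence, but 2.77% end in 0.5, so they were taken as estimated counts and rounded to whole numbers. The genome build was R64, per the submitters' processing notes. The aligner, the counter and strandedness were not given in the sources used here. Left out were 1302 gene and mRNA lines of 1 library and 4693 identical second copies, which left 5989 coding sequences on 16 chromosomes, 5977 with the positions of R64 and 206 overlapping another.

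The 43 members, the other lists and the rule for naming genes were chosen with earlier results of these data known. Every member is named. Values in every library are given for members called at least 2-fold with libraries that do not overlap those of 0 h and a mean of at least 10 CPM, for the 4 with the smallest range, and for others singled out after their values were seen (RAD16, RAD3, RAD27, MSH6, RAD53 and TEL1). Of the other genes, up to 3 rises and 3 falls a time were named by that rule, with DUN1, HUG1, RNR3 and RAD6, and some results are not reported here. The p-values used edgeR's two-sided quasi-likelihood test over all 10 libraries with time as the only term, TMM scaling (factors 0.876 to 1.16), filterByExpr (46 genes left out) and Benjamini-Hochberg adjustment. The biological coefficient of variation was 4.05%. Counting floors were 3 reads and cover counting error only. Motifs were searched in the RefSeq R64 genome.

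The letters a and b were taken as pairing libraries, since the design text describes replicate time series. The deviation of each series a library from its own time mean correlated across 5613 genes with that at the other times at Pearson r -0.113 to 0.313, and genes are not independent replicates. Alternatives were other scalings, DESeq2, filters, rounding, the series as a block, fits of 2 groups, overlapping genes left out and each library left out. The pipeline was checked on simulated counts. Fits ran in edgeR 4.0.16 (with limma 3.58.1) and DESeq2 1.42.0 under R 4.3.3, other steps in Python 3.11.15 using numpy 2.4.6, pandas 2.3.3 and matplotlib 3.10.9.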

Additional observations from a re-analysis of the deposited data

How the results depend on the processing

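The counts of members called higher and lower at 1.5 and 2 h were within 1.5 times of those reported under every alternative run. Members had 38 to 2356 reads in a library, and the part of depth in which calls were made was not tested. DESeq2's Wald test called fewer members, with 5 lower at 0.5 h (12 by edgeR), 8 higher at 1 h (13), 8 higher at 1 h against 0.5 h (14), and 1 higher and 1 lower at 2 h against 1.5 h, and it called 11 of the other 88 genes lower at 0.5 h (20). Library size alone gave 5 lower at 1 h against 0.5 h, beside 1566 of all 5943 genes. At 1.5 h against 1 h it gave 37 higher and 3 lower, beside 3522 and 1126 of all genes. At 2 h against 1.5 h it gave 2 higher and 4 lower, beside 699 and 724 of all genes. It called 8 and 9 of the 88 lower at 1.5 and 2 h, beside 1515 and 1501 of all genes. As it moves all genes alike, it also turned values near or below 0 positive, and where such a value was called in either fit it became 0.25 for TEL1, 0.31 for RAD30, 0.22 for RAD27 and 0.29 for MRE11 at 1.5 h, and 0.012 for RAD27 and 0.27 for RAD5 at 2 h. Uncalled values of RAD5, RAD7, RAD10 and DDC2 at 1.5 h turned positive too, and with upper-quartile factors those of TEL1, RAD30, RAD10 and MRE11. At 2 h against 1.5 h, where few genes were called, DESeq2's size factors gave 3 higher, upper-quartile factors 2 higher and 4 lower, the fit without overlapping genes 3 higher and 4 lower, and the fit of 2 groups 2 higher. The cause was not tested.

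Without single libraries the members called higher and lower ranged from 7 to 10 and 8 to 12 at 0.5 h, 9 to 14 and 6 to 7 at 1 h, 23 to 26 and 4 to 4 at 1.5 h, then 24 to 28 and 3 to 4 at 2 h. Between neighbouring times the ranges were 11 to 14 and 5 to 9, 20 to 23 and 4 to 5, and 2 to 5 and 1 to 2. Of the 88 other genes, 14 to 20 were higher and 12 to 20 lower at 0.5 h, 21 to 29 and 11 to 18 at 1 h, 32 to 40 and 18 to 22 at 1.5 h, then 33 to 43 and 16 to 20 at 2 h. With the series as a replicate block, 10 members were higher and 13 lower at 0.5 h, 13 and 9 at 1 h, 26 and 4 at 1.5 h, then 28 and 4 at 2 h. The 6 member calls that changed with the block are given beside their genes, and no other member call changed in the 7 comparisons. The counts by role and by promoter box under other scalings, and without the 0.5 h library of series a, were chosen after seeing the data.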
